A study of Mus musculus with 6 samples.

Results

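The matrix metalloproteinases (MMPs) and their tissue inhibitors (TIMPs) were followed in knee articular cartilage of adseverin knockout mice. The 10 genes, Mmp2, Mmp3, Mmp9, Mmp11, Mmp13, Mmp14, Mmp23, Timp1, Timp2 and Timp4, were taken by symbol from a read count table of 55401 mouse genes, and all 10 were found. Both groups had 3 libraries. The adseverin knockout group (CKO 1, 2 and 3) and the wild-type control group (CTRL 1, 2 and 3) were 10 weeks old at harvest, and mice of both groups had been given tamoxifen, 1.5 mg per 10 g body weight on 5 successive days, from 8 weeks of age. The sources used here do not give the Cre driver, the deleted exons or the number of mice behind each library. The p-values thus rest on the spread among 3 libraries a group, and some of that spread may be technical.

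MMPs are zinc-dependent endopeptidases that are made as inactive zymogens and cut the proteins of the extracellular matrix. In cartilage they are known for the cleavage of collagen II and aggrecan in growth and in osteoarthritis. TIMPs bind the active site of MMPs and block it, and TIMP-2 also takes part in the activation of MMP-2 at the cell surface by the membrane-bound MMP-14. Adseverin, encoded by Scin, is a protein of the gelsolin family that severs and caps actin filaments.

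Promoter sequence is shown for the 3 genes with the smallest p-values (Timp1, Mmp14 and Mmp13) and for Mmp3, which had the next largest fold change after Mmp13. Each line gives the 120 bases before the annotated gene start in RefSeq (GRCm38.p6), 5′ to 3′ on the strand of the gene. Capitals mark matches on either strand to the AP-1 motif TGANTCA, the RUNX motif TGTGGT, the TATA box TATAAA and the GC box GGGCGG. The stretches are, in order of the lines, chr9:7272394-7272513, chr9:7445702-7445821, chr14:54431478-54431597 and chrX:20870046-20870165, all on the plus strand.
Mmp13: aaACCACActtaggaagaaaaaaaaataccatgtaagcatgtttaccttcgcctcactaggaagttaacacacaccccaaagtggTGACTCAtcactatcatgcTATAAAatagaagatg
Mmp3: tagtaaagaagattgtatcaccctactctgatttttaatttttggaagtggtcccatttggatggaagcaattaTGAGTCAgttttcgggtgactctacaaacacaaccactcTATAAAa
Mmp14: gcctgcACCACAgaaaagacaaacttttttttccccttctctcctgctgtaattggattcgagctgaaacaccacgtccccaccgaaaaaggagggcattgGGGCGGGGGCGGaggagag
Timp1: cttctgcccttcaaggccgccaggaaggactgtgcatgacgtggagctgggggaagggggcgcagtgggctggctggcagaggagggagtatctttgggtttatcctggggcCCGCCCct

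Sequence was matched for 8 of the 10 genes, and 250 bases before each gene start were searched. Counted from the base before the gene start as -1, Mmp13 held TGACTCA at -35 to -29, TATAAA at -16 to -11 and ACCACA, the reverse of the RUNX motif, at -118 to -113. Mmp3 held TGAGTCA at -46 to -40 and TATAAA at -7 to -2. None of the other 6 genes held the AP-1 motif or the TATA box in this window. Mmp14 had 2 GC boxes and 1 RUNX match, and Timp1 had 1 GC box on the opposite strand. Mmp11 had 2 GC boxes, Timp2 had 1 and Timp4 had no match to the 4 motifs. Mmp23 has 2 annotated starts, and 1 of them had a RUNX match. Over 32851 promoters with the same window, 6.75% held the AP-1 motif, 14% the RUNX motif, 12.4% the TATA box and 32.7% the GC box. A match describes letters and was not tested as a binding site.

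Scin measured 39.1, 29.9 and 29.4 CPM in CKO 1, 2 and 3, against 186, 185 and 219 CPM in CTRL 1, 2 and 3, so the libraries matched their labels and the transcript was reduced, not absent, in CKO. CPM is the read count scaled to library size after TMM normalisation, which brings libraries to a common level. The total counts ran from 22664828 to 31014996 reads per library. In edgeR's quasi-likelihood test of 16260 genes, 1 gene (0.00615%) had a Benjamini-Hochberg adjusted p under 0.05, and it was Scin. Chondrocyte markers were abundant in every library, the 7 markers adding up to 27521 to 33737 CPM in CKO and 25877 to 26721 CPM in CTRL. Markers of bone and marrow were also present. The 7 osteoblast and osteocyte genes added up to 3169 to 5400 CPM in CKO and 2836 to 3968 CPM in CTRL. That list leaves out Ibsp (mean 27838 CPM in CKO and 24417 CPM in CTRL), placed with the hypertrophic chondrocyte markers. It also leaves out Col1a1 (7257 and 7655 CPM) and Col1a2 (5661 and 5518 CPM), placed with the matrix substrates. The sums therefore do not give the share of bone in the tissue. The 7 osteoclast genes added up to 628 to 1173 CPM in CKO and 656 to 1575 CPM in CTRL. For marrow, 7 neutrophil genes added up to 1253 to 2628 CPM in CKO and 1053 to 1896 CPM in CTRL. Sums of 5 erythroid genes were 1872 to 2836 CPM in CKO and 1801 to 2033 CPM in CTRL. In bulk tissue, fewer cells of a type and less RNA per cell cannot be told apart.

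None of the 10 genes passed the adjusted threshold in edgeR, nor in DESeq2, limma-voom or limma-trend. Of the 10, 7 had a log2 fold change (CKO minus CTRL) below 0 and 3 above 0, while 49.4% of all genes tested lay below 0. The median was -0.28 over the 10 genes and 0.00 over all genes tested. At an unadjusted p under 0.05, edgeR gave 3 of the 10 as lower in CKO (Timp1, Mmp14 and Mmp13) and 0 as higher, where 2.96% of all genes were lower and 3.54% higher. DESeq2 gave 2 of the 10 at that unadjusted level, and limma-voom gave 3, but the share of all genes was not counted for either. All 10 passed the filter on low counts. The genes were listed with earlier results of these data known, so these counts describe the list and are no independent test of it.

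**Figure D1:**
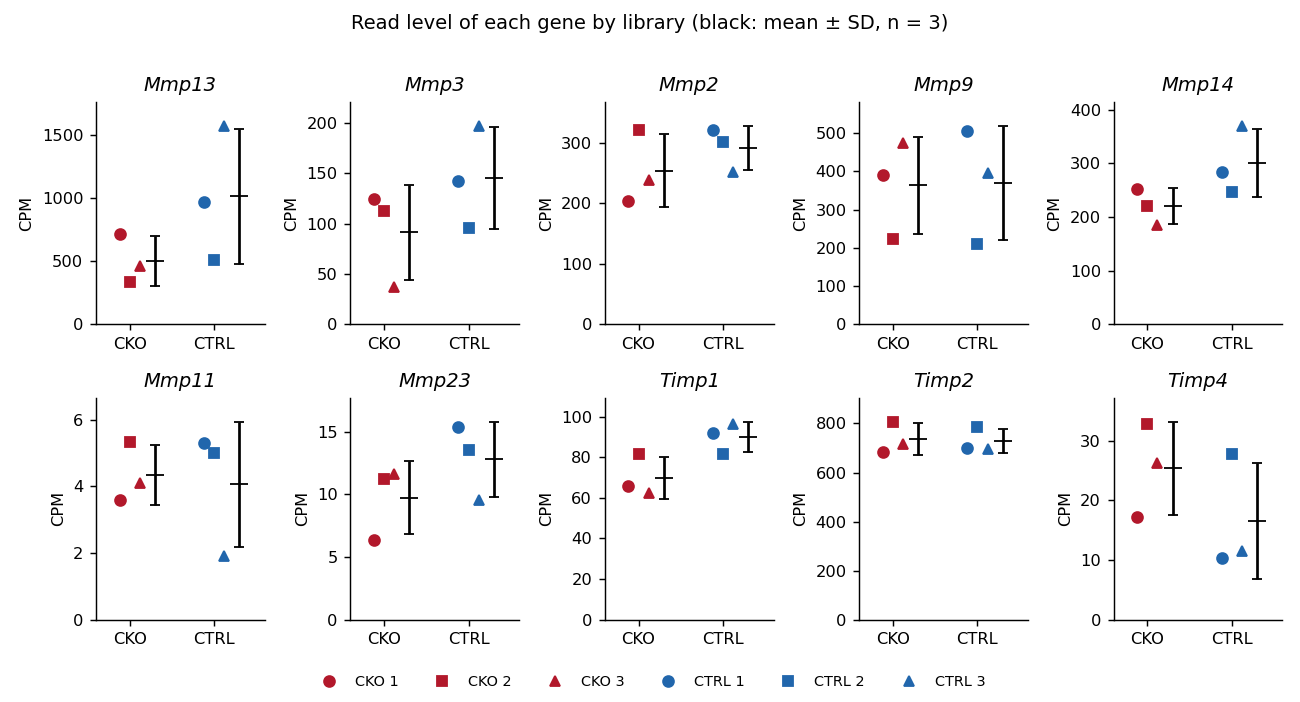
Level of each of the 10 genes in CPM (vertical axis, from 0) in CKO and CTRL libraries, with symbols for the library number and the mean ± SD of 3 libraries in black. Mmp13 ranges from 330 to 717 CPM in CKO and from 507 to 1569 CPM in CTRL, and Timp1 is the 1 gene whose groups do not overlap.

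Per length, the genes spanned a wide range of levels. Levels between genes are given in TPM, reads per length of exon scaled to the same total in each library. Over the 6 libraries Mmp13 averaged 870 ± 521 TPM (SD) and ranked 106th of 55141 genes, and Timp2 averaged 575 ± 35.4 TPM. Mmp13 was the highest of the 10 in 3 libraries and Timp2 in the other 3, so their order was not set. Mmp9, Timp1, Mmp2, Mmp3 and Mmp14 followed at 319, 276, 248, 201 and 134 TPM, and the range of each overlapped that of the next. Mmp23, Timp4 and Mmp11 were far lower at 14.8, 10.9 and 4.64 TPM, and their ranges again overlapped from one to the next. Gaps without overlap lay between Timp2 (538 to 625 TPM) and Mmp9 (180 to 454 TPM), and between Mmp14 (95.5 to 188 TPM) and Mmp23 (8.35 to 20.9 TPM).

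Mmp13, or collagenase-3, is the main enzyme that cuts collagen II in cartilage and is a product of hypertrophic chondrocytes and of osteoblasts. The gene (ENSMUSG00000050578) lies on GRCm38 chromosome 9, 7272514 to 7283331, plus strand. It had 717, 330 and 461 CPM in CKO 1, 2 and 3, against 963, 507 and 1569 CPM in CTRL 1, 2 and 3. CTRL 3 was the highest library, CKO 2 the lowest, and the groups overlapped because CKO 1 stood above CTRL 2. The means were 503 ± 197 CPM in CKO and 1013 ± 533 CPM in CTRL (SD, n = 3 each). The log2 fold change was -1.01 ± 0.40 (SE), a fold of 0.496 with a 95% interval of 0.263 to 0.935 (edgeR unadjusted p = 0.034, adjusted p = 0.716). Without CTRL 3 the log2 fold change was -0.55 (edgeR unadjusted p = 0.167), and without CKO 1 it was -1.36, the range over single libraries left out. Of 5 markers of hypertrophic chondrocytes, 4 had a log2 fold change above 0, with a median of 0.19 (Ibsp) and a range of -0.02 to 0.54. The 4 include Col10a1 at 0.02 ± 0.11. Col10a1, the collagen of hypertrophic cartilage, had 3117, 3829 and 3154 CPM in CKO and 3511, 3528 and 2916 CPM in CTRL. Ihh, Indian hedgehog, had 143, 176 and 166 CPM in CKO and 129, 91.3 and 113 CPM in CTRL. CTRL 3 had the most Mmp13 and the least Col10a1. The 7 osteoblast and osteocyte markers added up to 3950, 3169 and 5400 CPM in CKO 1, 2 and 3, against 3968, 3091 and 2836 CPM in CTRL 1, 2 and 3, so CTRL 3 was also the lowest library in these. The part of either cell type in the Mmp13 values was not tested.

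Mmp3, or stromelysin-1, cleaves proteoglycans and activates other pro-MMPs, and it lies in the same gene cluster as Mmp13 (ENSMUSG00000043613, chromosome 9, 7445822 to 7455975, plus strand). It had 124, 112 and 36.7 CPM in CKO 1, 2 and 3, against 142, 95.4 and 197 CPM in CTRL 1, 2 and 3. CKO 3 was well below the other 5 libraries, and CKO 1 and CKO 2 lay within the CTRL range. This gave a log2 fold change of -0.67 ± 0.42 (95% interval -1.63 to 0.30, edgeR adjusted p = 0.858). It was -0.29 without CKO 3, -0.38 without CTRL 3, -0.90 without CTRL 2 and -0.95 without CKO 1. Mmp11, or stromelysin-3, is activated inside the cell by furin (ENSMUSG00000000901, chromosome 10, 75923222 to 75936496, minus strand). It had 3.59, 5.33 and 4.10 CPM in CKO and 5.30, 5.00 and 1.90 CPM in CTRL, with 50 reads in CTRL 3, the fewest of any of the 10 genes. Its log2 fold change was 0.10 ± 0.42 (95% interval -0.87 to 1.06, edgeR adjusted p = 0.986). Mmp11 overlaps Chchd10 on the other strand, which averaged 188 reads. The sources used here do not state whether counting used strand, so reads of the pair may not have been told apart.

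Mmp2 and Mmp9 encode the gelatinases, which cut denatured collagen and collagen IV. Mmp2 (ENSMUSG00000031740, chromosome 8, 92827291 to 92853420, plus strand) is widely made by mesenchymal cells. It had 204, 321 and 238 CPM in CKO 1, 2 and 3, against 322, 302 and 252 CPM in CTRL 1, 2 and 3. CKO 2 matched the highest CTRL library and the other CKO libraries lay below all of CTRL. Its log2 fold change was -0.20 ± 0.17 (95% interval -0.58 to 0.18, edgeR adjusted p = 0.897). It was -0.06 without CKO 1 and -0.40 without CKO 2 (edgeR unadjusted p = 0.019, adjusted p = 0.909). The 8 fibroblast and synovial lining markers all had a log2 fold change below 0 (median -0.57). They added up to 1316 to 2350 CPM in CKO and 2401 to 2778 CPM in CTRL, with CKO 2 the highest CKO library as for Mmp2. Col3a1 made up most of that sum, at 977, 2082 and 1114 CPM in CKO 1, 2 and 3. Within CKO, Pi16, Col14a1, Thy1 and Dpp4 were also highest in CKO 2, but Pdgfra and Dpt were highest in CKO 1 and Cd34 in CKO 3. The part of these cells in the Mmp2 values was not tested.

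Mmp9 (ENSMUSG00000017737, chromosome 2, 164940780 to 164955850, plus strand) is made by osteoclasts, neutrophils and macrophages, among other cells. It had 391, 223 and 475 CPM in CKO 1, 2 and 3, against 506, 210 and 395 CPM in CTRL 1, 2 and 3. The groups overlapped almost fully, with means of 363 ± 128 CPM in CKO and 370 ± 149 CPM in CTRL (SD, n = 3 each). The log2 fold change was -0.03 ± 0.34, and its 95% interval of -0.81 to 0.75 leaves room for a fold between 0.571 and 1.68 (edgeR adjusted p = 0.994). It was 0.25 without CTRL 1 and -0.32 without CTRL 2. The library numbered 2 was the lowest in each group, and the same was so of summed osteoclast markers. Those markers, which do not include Mmp9, added up to 1005, 628 and 1173 CPM in CKO 1, 2 and 3, against 1575, 656 and 1260 CPM in CTRL 1, 2 and 3. All 7 osteoclast markers passed the filter and 6 of them lay below 0 (median -0.17), where 49.4% of all genes tested lay below 0. In edgeR 0 of the 7 had an unadjusted p under 0.05. The lowest log2 fold change was that of Ctsk, the cathepsin of osteoclasts (-0.37 ± 0.30), and the highest that of Oscar (0.45 ± 0.45). Ctsk averaged 582 ± 150 CPM in CKO and 754 ± 294 CPM in CTRL, and Oscar 21.0 ± 9.02 CPM and 15.3 ± 8.09 CPM. The part of osteoclasts in the Mmp9 values was not tested.

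**Figure D2:**
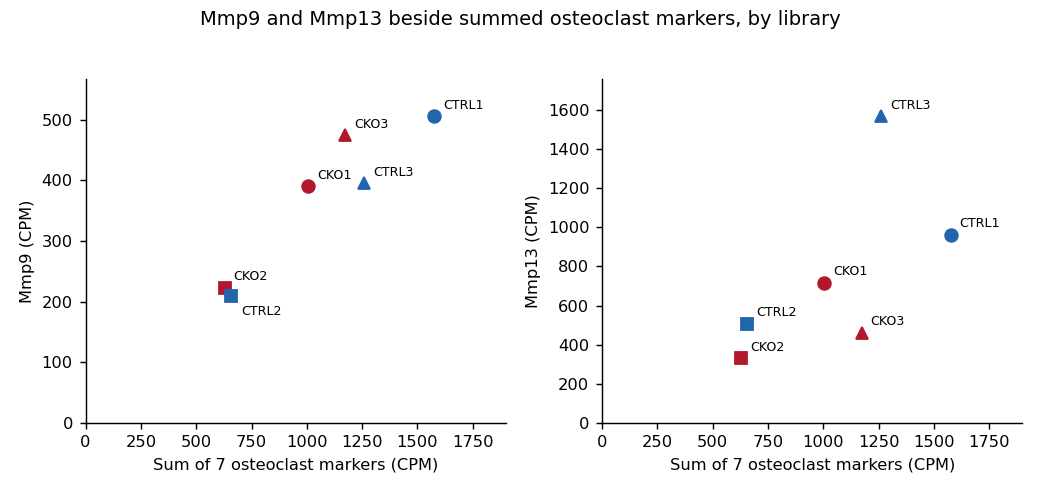
Mmp9 (left, CPM) and Mmp13 (right, CPM) against the sum of 7 osteoclast markers (horizontal axis, CPM) in each library. CKO 2 and CTRL 2 are lowest in both Mmp9 (223 and 210 CPM) and the marker sum (628 and 656 CPM), while CTRL 3 has the most Mmp13 (1569 CPM) at a marker sum of 1260 CPM.

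Mmp14 encodes the membrane-bound collagenase MT1-MMP, which also activates pro-MMP-2 and pro-MMP-13 (ENSMUSG00000000957, chromosome 14, 54431612 to 54445364, plus strand). It had 253, 221 and 185 CPM in CKO 1, 2 and 3, against 284, 246 and 370 CPM in CTRL 1, 2 and 3. CTRL 3 was again the highest library, and the groups overlapped by 1 library, CKO 1 lying just above CTRL 2. The means were 220 ± 33.6 CPM in CKO and 300 ± 63.4 CPM in CTRL (SD, n = 3 each). The log2 fold change was -0.45 ± 0.16, a fold of 0.733 with a 95% interval of 0.565 to 0.951 (edgeR unadjusted p = 0.025, adjusted p = 0.700). It was -0.27 without CTRL 3 and -0.58 without CTRL 2. Mmp23 encodes a membrane-anchored MMP that lacks the hemopexin domain (ENSMUSG00000029061, chromosome 4, 155650655 to 155653384, minus strand). It had 6.38, 11.2 and 11.6 CPM in CKO and 15.4, 13.5 and 9.54 CPM in CTRL, with CKO 1 the lowest. Its log2 fold change was -0.40 ± 0.29 (95% interval -1.05 to 0.26, edgeR adjusted p = 0.873), and ran from -0.57 to -0.17 with single libraries left out.

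Timp1 encodes an inhibitor induced by growth factors and cytokines in many cells (ENSMUSG00000001131, chromosome X, 20870166 to 20874735, plus strand). It had 65.6, 81.6 and 62.3 CPM in CKO 1, 2 and 3, against 92.0, 81.7 and 96.3 CPM in CTRL 1, 2 and 3. It was the 1 gene of the 10 whose groups did not overlap, and the margin between CKO 2 and CTRL 2 was within rounding. Over all genes tested 5.89% were lower in CKO without overlap and 6.41% higher. The means were 69.8 ± 10.3 CPM in CKO and 90.0 ± 7.54 CPM in CTRL (SD, n = 3 each). The log2 fold change was -0.37 ± 0.13, a fold of 0.776 with a 95% interval of 0.636 to 0.946 (edgeR unadjusted p = 0.0183, adjusted p = 0.700). Omitting 1 library at a time gave values between -0.49 and -0.29. The 7 macrophage markers all had a log2 fold change below 0 (median -0.34). They added up to 274, 328 and 357 CPM in CKO 1, 2 and 3, against 489, 326 and 363 CPM in CTRL 1, 2 and 3. CKO 3, the lowest library in Timp1, was the highest CKO library in these markers, and CTRL 2 lay below CKO 2 and CKO 3. Whether these cells have a part in the Timp1 values was not tested. Timp1 overlaps Syn1 on the other strand, which averaged 33.2 reads, against 1481 reads or more for Timp1 in each library.

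Timp2, the inhibitor made constitutively by most mesenchymal cells, was the steadiest of the 10 genes (ENSMUSG00000017466, chromosome 11, 118301069 to 118355740, minus strand). It had 684, 808 and 715 CPM in CKO 1, 2 and 3, against 702, 784 and 698 CPM in CTRL 1, 2 and 3, and its highest library was 1.18 times its lowest. The log2 fold change was 0.02 ± 0.09 with a 95% interval of -0.19 to 0.22 (edgeR adjusted p = 0.989). The interval bounds a difference at folds of 0.876 and 1.17. Timp2 overlaps Cep295nl on the same strand, which averaged 26.2 reads, against 15444 reads or more for Timp2 in each library. Timp4, an inhibitor with a narrower tissue range that includes heart and brain (ENSMUSG00000030317, chromosome 6, 115241892 to 115252205, minus strand), lay the other way. It had 17.2, 32.8 and 26.2 CPM in CKO 1, 2 and 3, against 10.4, 27.8 and 11.6 CPM in CTRL 1, 2 and 3. All CKO libraries stood above CTRL 1 and CTRL 3, and CTRL 2 stood above CKO 1 and CKO 3. Its log2 fold change was 0.62 ± 0.39 (95% interval -0.27 to 1.51, edgeR adjusted p = 0.857). It was 1.20 without CTRL 2 (edgeR unadjusted p = 0.00316, adjusted p = 0.752) and 0.37 without CTRL 1. CTRL 2 also had the highest sum of the 6 libraries in several marker lists. Among these were smooth muscle and pericyte (338 CPM), superficial zone (33834 CPM), fibroblast and synovial lining (2778 CPM) and endothelium (54.2 CPM), besides adipocyte and skeletal muscle. The 5 adipocyte markers added up to 13.6, 22.9 and 15.3 CPM in CKO 1, 2 and 3, against 59.7, 129 and 12.4 CPM in CTRL 1, 2 and 3. The 5 skeletal muscle markers added up to 155, 203 and 14.1 CPM in CKO and 42.2, 1245 and 16.6 CPM in CTRL. The part of these cells in the Timp4 values was not tested. The gene overlaps Syn2 on the other strand, which averaged 19.8 reads, against 292 reads or more for Timp4 in each library.

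**Figure D3:**
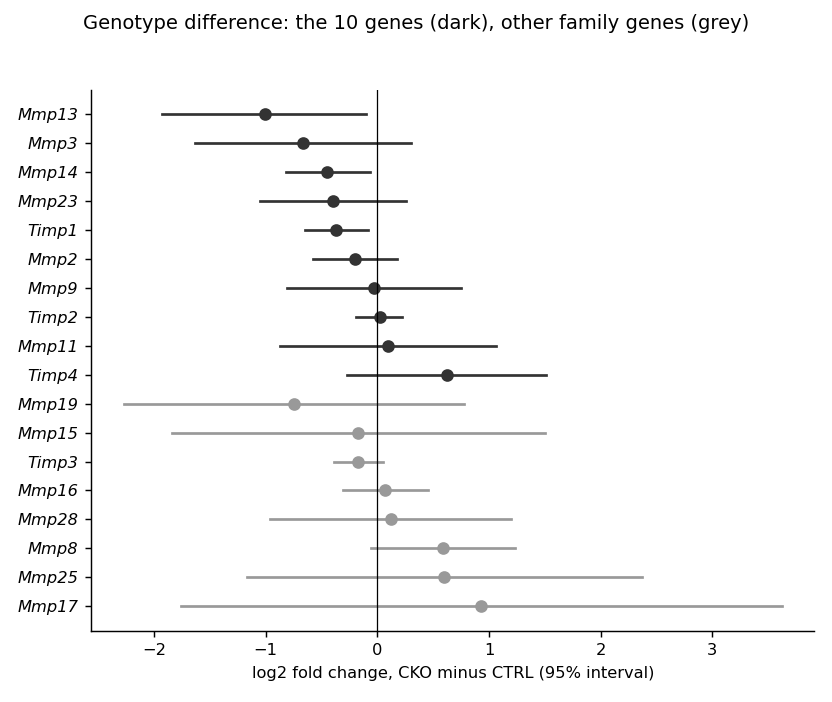
Log2 fold change, CKO minus CTRL, with its 95% interval for the 10 genes (dark) and for the other family genes tested (grey). The intervals of Mmp13, Mmp14 and Timp1 lie below 0 before adjustment over 16260 genes, and those of the other 7 genes include 0.

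In both groups the 7 Mmp genes varied more between libraries, relative to their means, than Timp1 and Timp2 did. The coefficient of variation of Mmp13 was 39.2% in CKO and 52.6% in CTRL, that of Mmp3 52.1% and 35.1%, and that of Mmp9 35.4% and 40.3%. It was 14.8% in CKO and 8.38% in CTRL for Timp1, and 8.81% and 6.67% for Timp2, whereas Timp4 had 30.7% and 58.6%. Across all 6 libraries the highest level over the lowest was 5.36 for Mmp3, 4.76 for Mmp13, 3.15 for Timp4 and 1.55 for Timp1. These ratios describe the libraries and were not tested.

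Summed per length, the 7 Mmp genes made up 1699, 1168 and 1336 TPM in CKO 1, 2 and 3, against 2329, 1335 and 2877 TPM in CTRL 1, 2 and 3. Mmp13 held 48.4, 31.8 and 39.6% of that sum in CKO and 49.1, 43.0 and 61.8% in CTRL, more than any other of the 7 in each library. The 3 Timp genes summed to 773, 918 and 792 TPM in CKO and 906, 903 and 877 TPM in CTRL, a range far narrower than that of the enzymes. The Timp sum was 45.5, 78.6 and 59.3% of the Mmp sum in CKO and 38.9, 67.6 and 30.5% in CTRL, with CTRL 2 above CKO 1 and CKO 3. Transcript ratios do not measure active enzyme, since MMPs are made as zymogens.

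**Figure D4:**
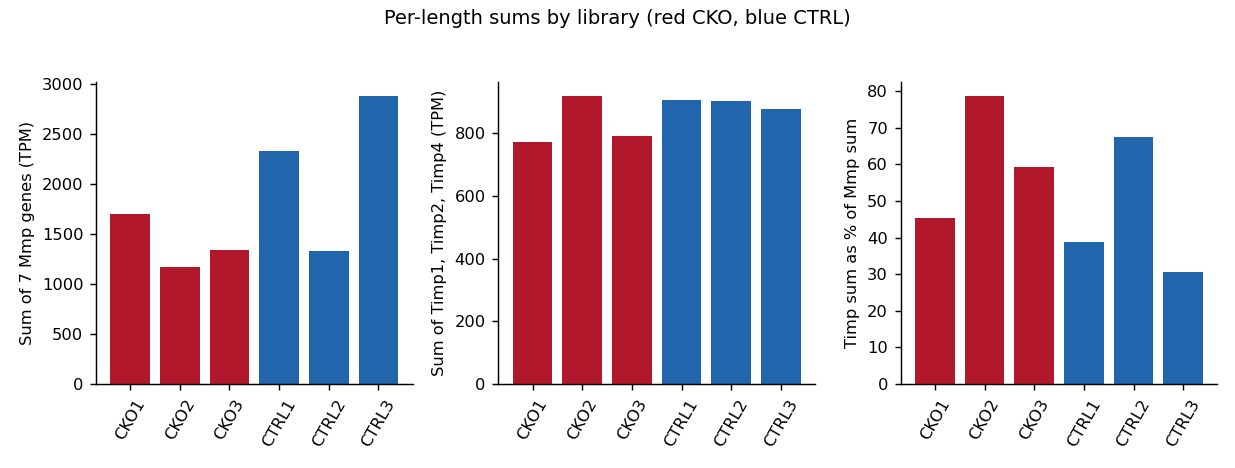
Sum of the 7 Mmp genes in TPM, sum of Timp1, Timp2 and Timp4 in TPM, and the Timp sum as a percent of the Mmp sum in each library, with bars from 0 (red CKO, blue CTRL). CTRL 1 and CTRL 3 have the highest Mmp sums (2329 and 2877 TPM), and CKO 3 (1336 TPM) and CTRL 2 (1335 TPM) are level.

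Leaving out single libraries moved the values of single genes without bringing any of the 10 past the adjusted threshold. Mmp13, Mmp14, Mmp3, Mmp23, Mmp2 and Timp1 lay below 0 and Timp4 above 0 under each of the 6 omissions. Mmp9, Mmp11 and Timp2 crossed 0. At the unadjusted level, 0 of the 10 genes stood under 0.05 without CTRL 3 and 0 without CKO 3, against 4 without CTRL 2 (edgeR). The share of all genes at that level was not counted in the fits with a library left out, so these counts have no background beside them.

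**Figure D5:**
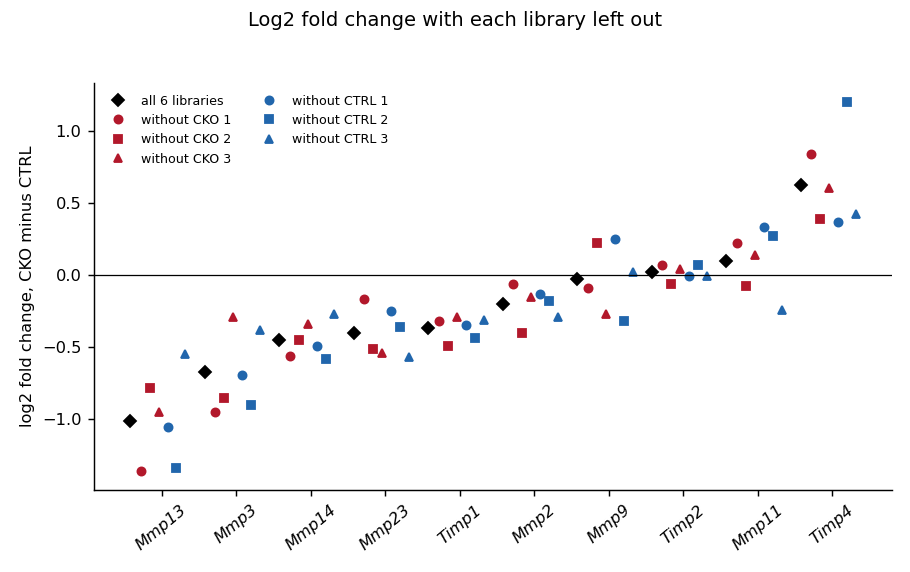
Log2 fold change, CKO minus CTRL, of each gene with all 6 libraries (black) and with each library left out (colour for the group, symbol for the number). Mmp13 runs from -1.36 to -0.55, Timp4 from 0.37 to 1.20 and Timp2 from -0.06 to 0.07.

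The patterns closest to 3 of the genes were sought among 9092 genes with a mean of at least 10 CPM. Likeness was the root mean square difference of log2 levels centred on each gene's mean over the 6 libraries. For Mmp13, whose own spread by this measure was 0.740, the nearest were Sned1, which encodes a matrix protein, at 0.275, Ccn5, a matricellular protein gene, at 0.351, and F5, coagulation factor V, at 0.357. Sned1 had 38.9, 24.8 and 27.0 CPM in CKO 1, 2 and 3, against 45.5, 30.5 and 65.3 CPM in CTRL 1, 2 and 3. For Mmp3 (own spread 0.747) they were Ndp, which encodes the Frizzled ligand norrin, at 0.286, St6gal1, a sialyltransferase gene, at 0.354, and Nt5dc2 at 0.392. For Timp1 (own spread 0.231) they were Exoc6b, an exocyst subunit gene, at 0.0485, Fam89a at 0.0682 and Ubr7 at 0.0719. Among the members with that mean, Mmp14 came nearest to both Mmp13 (34th) and Mmp3 (36th). Libraries and group sizes were shared by all genes compared, and no test was made.

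Of the other 17 Mmp and Timp genes of the mouse, 8 passed the filter and none of these had an unadjusted p under 0.05 in edgeR. Mmp1a, Mmp1b, Mmp7 and Mmp20 had 0 reads in every library. Timp3, the matrix-bound inhibitor, was the most abundant at 1756 ± 194 CPM in CKO and 1975 ± 139 CPM in CTRL (log2 fold change -0.17 ± 0.10, edgeR adjusted p = 0.840). With it added, the Timp sum was 83.7, 141 and 104% of the Mmp sum in CKO and 69.8, 127 and 55.7% in CTRL. Timp3 overlaps Syn3 on the other strand, which averaged 133 reads. Mmp8, the neutrophil collagenase, had 44.5, 64.0 and 85.1 CPM in CKO and 59.6, 36.7 and 32.6 CPM in CTRL (log2 fold change 0.59 ± 0.28, edgeR adjusted p = 0.793). The 7 neutrophil markers added up to 1253, 1644 and 2628 CPM in CKO and 1896, 1053 and 1491 CPM in CTRL. CKO 3 was the highest library in both, and the part of neutrophils in the Mmp8 values was not tested. Mmp16, a membrane-type MMP of cartilage and brain, had 19.3 ± 3.29 CPM in CKO and 18.4 ± 1.31 CPM in CTRL (SD, n = 3 each). Mmp12, the macrophage elastase, had 0, 272 and 0 reads in CKO and 37, 8 and 0 reads in CTRL, so a single CKO library held most of its reads. Mmp10, Mmp21, Mmp24 and Mmp27 had at most 25 reads in any library. Mmp19, Mmp28, Mmp15, Mmp17 and Mmp25 averaged at most 3.88 CPM in either group, with log2 fold changes from -0.75 to 0.93.

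Genes that act on MMPs were read from the same fit, and 0 of them passed the adjusted threshold. Of 19 activators and other inhibitors, 16 were tested, with 1 higher and 0 lower at an unadjusted p under 0.05 (median -0.07). Serpina1a, which encodes alpha-1 antitrypsin, was the one that was higher, at 51.6 ± 19.2 CPM in CKO and 27.1 ± 5.27 CPM in CTRL (log2 fold change 0.93 ± 0.28, edgeR adjusted p = 0.658). The MMP-trapping protein gene A2m and the proprotein convertase gene Pcsk5 had log2 fold changes of -0.87 ± 0.44 and -0.32 ± 0.16. Of 20 transcription factor genes known from Mmp promoters, 1 was higher and 5 were lower at that level (median -0.10), where 3.54% of all genes tested were higher and 2.96% lower. The AP-1 subunit gene Fosl2 had 30.0 ± 1.65 CPM in CKO and 38.1 ± 2.78 CPM in CTRL (log2 fold change -0.35 ± 0.12), and Cebpb had -0.28 ± 0.10. The others of the 5 were the AP-1 subunit genes Jun (-0.55 ± 0.22) and Jund (-0.41 ± 0.15), and Rela (-0.27 ± 0.11). Of the remaining AP-1 subunit genes, Fos (-0.47 ± 0.48) and Junb (-0.30 ± 0.31) lay below 0, and Fosb (0.26 ± 0.56) and Fosl1 (0.05 ± 0.97) above. Mef2c, a hypertrophy factor, had 631 ± 43.6 CPM in CKO and 497 ± 35.4 CPM in CTRL (log2 fold change 0.34 ± 0.09). Runx2, which drives Mmp13 in chondrocytes, averaged 44.2 ± 8.47 CPM in CKO and 43.9 ± 6.77 CPM in CTRL (log2 fold change 0.01 ± 0.17, edgeR adjusted p = 0.994), and was named after its values were seen.

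Among 17 matrix substrates of MMPs, 2 were higher and 3 lower at an unadjusted p under 0.05 (median 0.02). Over all genes tested, 3.54% were higher and 2.96% lower at that level, and 5.89% were lower in CKO without overlap. Acan (aggrecan) had 708, 949 and 989 CPM in CKO 1, 2 and 3, against 1273, 1322 and 1440 CPM in CTRL 1, 2 and 3 (edgeR adjusted p = 0.535). Fn1 (fibronectin) had 3642 ± 247 CPM in CKO and 4575 ± 203 CPM in CTRL, and Col9a1, a collagen IX chain, had 191 ± 47.7 CPM in CKO and 132 ± 16.4 CPM in CTRL. Of 13 ADAM and ADAMTS proteases, which some TIMPs also bind, 1 was higher and 2 were lower (median 0.00). The aggrecanase gene Adamts4 had 0.930, 3.16 and 4.35 CPM in CKO 1, 2 and 3, against 10.4, 6.76 and 12.2 CPM in CTRL 1, 2 and 3, with no overlap (log2 fold change -1.79 ± 0.51, edgeR adjusted p = 0.658). Adam9 and Adamts1 had log2 fold changes of -0.50 ± 0.15 and 0.44 ± 0.16.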

How the data were processed

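RNA from knee articular cartilage was made into full-length cDNA libraries with a low-input kit, per the labels' protocols. The authors deposited raw read counts per Ensembl gene and a normalized signal for 23239 genes, the counts divided by 1 factor per library. The submitters' processing notes list HISAT2 2.2.1, featureCounts 2.0.1 and the build GRCm38, among others, without roles or settings. Whole reads (within 0.01) came back for 100% of the signal values, 0 differing from the count table, and edgeR on them called 1 gene.

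Symbols (55141 identifiers) and exon lengths came from GENCODE M21. Counts were filtered with filterByExpr (16260 genes left), normalised by TMM and tested with edgeR 4.0.16 (R 4.3.3, glmQLFit and glmQLFTest, group as the only term). P-values were adjusted over all genes tested. The SE is the log2 fold change over the square root of F, and 95% intervals use the t distribution. An exact permutation test of 3 against 3 cannot pass 0.05 and was not used. Libraries of a group differed by 31.4 to 36.5 chi-square units per degree of freedom, so none was a duplicate. Counts were simulated for CKO against CTRL over 16260 genes, with 200 randomly chosen genes altered in each set. The test found 12.8%, 39.4% and 69.4% of genes altered by factors of 1.5, 2 and 4, in that order. Of its calls, 10.2% were genes left unaltered.

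All 10 genes are named. Other family genes are named where they passed the filter or a few reads call for it. Related genes are named where their p was among the 3 smallest of their list. Further list genes, among them Col10a1, Ihh, Ctsk, Runx2, Col1a1, Col1a2, Rela and AP-1 subunit genes, were added after their values were seen, as were overlapping genes. The members, lists, cell type markers and alternatives were chosen with earlier results of these data known. Alternatives were DESeq2 1.42.0, limma 3.58.1 (voom and trend with a pseudocount of 1), other scaling factors and filters, the replicate block and omitted libraries.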

Additional observations from a re-analysis of the deposited data

How the results depend on the processing

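None of the 10 genes passed the adjusted threshold under any of the 18 alternatives run. Mmp13, Mmp14, Mmp3, Mmp23, Mmp2, Timp1 and Timp4 kept their direction in all of them. For the reads recovered from the normalized signal, 0 of which differed from the count table, the outcome was fixed beforehand. That alternative adds no support here or for Scin below. The count of genes past the threshold was 1 with all libraries and edgeR, 3 with no filter and 0 without CTRL 2 and CKO 3. DESeq2 gave 82, and also 82 on the 16260 filtered genes, of which 16247 had a p-value. The latter fit was chosen after the data were seen. With single libraries left out the count was 1 to 2, the higher without CTRL 3. The cause of these differences was not tested. The replicate block gave 1 gene, and the same-numbered libraries had correlations of -0.0242, 0.0908 and 0.0336, none over 0.1, and the labels do not say what a shared number marks. The median of the 10 genes, -0.283, ran from -0.428 (without CKO 2) to -0.127 (without CKO 1) and was -0.186 without CTRL 1, -0.342 without CTRL 2 and -0.413 without CTRL 2 and CKO 3. With single libraries left out, the log2 fold change of Mmp9 ran from -0.32 to 0.25, Mmp11 from -0.24 to 0.33, Timp2 from -0.06 to 0.07, Mmp15 from -1.07 to 0.28, Mmp16 from -0.07 to 0.18, Mmp25 from -0.15 to 1.50 and Mmp28 from -0.20 to 0.64. Without CTRL 2 and CKO 3, Mmp15, Mmp16 and Mmp17 also turned, to 0.32, -0.11 and -0.04. Scin passed in 17 of 18 alternatives, its adjusted p being 0.0536 without CTRL 2 and CKO 3. With 3 libraries a group, a 2-fold difference was often missed in simulated counts (39.4% recovered). That rate is over randomly chosen genes, with 200 altered in each set, and is not a rate for these 10 genes.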

Other observations

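Mmp9 in CPM over the sum of the 7 markers was 0.389, 0.355 and 0.405 in CKO 1, 2 and 3, against 0.321, 0.321 and 0.313 in CTRL 1, 2 and 3. This ratio was formed after the values were seen and was not tested. Apart from that of Mmp8 below, no such ratio to a marker sum was formed for other genes. Neutrophils and macrophages also make Mmp9, and 6 of the 7 neutrophil markers had a log2 fold change above 0 (median 0.37) while all 7 macrophage markers lay below 0. The part of these cells in the ratio was not tested. For Mmp8 over the 7 neutrophil markers the values were 0.0355, 0.0389 and 0.0324 in CKO and 0.0314, 0.0348 and 0.0219 in CTRL, which overlapped.

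Mmp13 over Timp1 in TPM was 3.63, 1.34 and 2.46 in CKO 1, 2 and 3, against 3.48, 2.06 and 5.41 in CTRL 1, 2 and 3. Mmp13 over Mmp14 in TPM was 6.33, 3.33 and 5.54 in CKO and 7.57, 4.59 and 9.47 in CTRL. In both ratios CKO 2 was the lowest library and CTRL 3 the highest.

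The remaining cell type marker lists had median log2 fold changes of 0.22 (chondrocyte), -0.08 (superficial zone), 0.35 (osteoblast and osteocyte), -0.17 (osteoclast), 0.37 (neutrophil), -0.46 (endothelium), -1.47 (adipocyte), -0.67 (smooth muscle and pericyte), -1.62 (skeletal muscle) and 0.35 (erythroid), and 0 of their genes passed the adjusted threshold in edgeR. CTRL 2 held the most adipocyte (129 CPM summed) and skeletal muscle (1245 CPM summed) marker reads. Its sums were also the highest for the smooth muscle and pericyte, superficial zone, fibroblast and synovial lining, and endothelium lists. Timp4 had 27.8 CPM in CTRL 2, against 10.4 and 11.6 CPM in CTRL 1 and 3.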
